A study of Mus musculus with 19 samples.

Results

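The replication-dependent histone genes were taken as all protein-coding genes whose symbol in the GENCODE annotation of GRCm38 begins with Hist1h, Hist2h, Hist3h or Hist4h. This rule, which used no measured value, gave 67 of the 55487 genes in the files: 6 H1, 18 H2A, 18 H2B, 12 H3 and 13 H4 genes. Of these, 54 lie in the Hist1 cluster on chromosome 13, 10 in the Hist2 cluster on chromosome 3, 2 in the Hist3 cluster on chromosome 11 and 1, *Hist4h4*, on chromosome 6. The libraries came from intestinal crypts, 1 per mouse, of C57BL/6 animals of both sexes in 4 groups. With free access to food (ad libitum) there were 5 neurotensin wild type (Nt+/+) and 4 neurotensin knockout (Nt-/-) animals, and after a fast of 48 hours there were 5 of each genotype. The paper describes its fed and fasted mice of both genotypes as Lgr5-EGFP mice, which carry a reporter in the *Lgr5* gene. Its crypts came from the small intestine without the distal end. Crypts were freed with EDTA, so the libraries mix stem, Paneth, dividing and differentiating cells, and fewer dividing cells and less histone RNA per dividing cell cannot be told apart in them.

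Histone H2A, H2B, H3 and H4 form the protein core that DNA wraps around, and H1 binds the linker DNA between cores. The replication-dependent genes supply these proteins during S phase, when new DNA must be packaged. Their mRNAs usually have no introns and end in a conserved 3′ stem-loop instead of a poly(A) tail. Stem-loop binding protein (SLBP) holds that structure, and the mRNA is degraded when DNA synthesis stops. Some members can also be made as polyadenylated RNA in cells that no longer divide. Because ribosomal RNA was depleted and no poly(A) selection was made, the libraries could hold both forms. The crypt is a site of rapid division in the adult gut.

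The stem-loop was looked for in the annotated transcripts after the stop codon, as a 16-base run that begins with GG, pairs over 6 bases without a mismatch and holds a 4-base loop that begins with TT. It was found in 44 of 67 members, as 6 sequences, starting 22 to 59 bases after the stop codon. Of the 23 members without such a run, 16 have models with under 40 annotated bases after the stop codon, so the search could not reach it there. The 6 forms are shown, each with a member that carries it and the position of the run on GRCm38, because they split by class. Capitals mark the paired stem and lower case marks the loop.
Hist1h2ac, chr13:23683477-23683492, minus strand: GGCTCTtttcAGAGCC
Hist1h2bk, chr13:22036300-22036315, plus strand: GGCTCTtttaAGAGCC
Hist2h2ac, chr3:96220418-96220433, minus strand: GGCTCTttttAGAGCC
Hist1h4d, chr13:23581950-23581965, plus strand: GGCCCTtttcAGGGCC
Hist1h4i, chr13:22040966-22040981, minus strand: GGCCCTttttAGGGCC
Hist1h4b, chr13:23757366-23757381, plus strand: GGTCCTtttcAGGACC
The first form was in 26 members of the H1, H2A, H2B and H3 classes and in no H4 gene. The forms of *Hist1h2bk* and *Hist2h2ac* were in 6 and 1 members, also outside the H4 class. The forms of *Hist1h4d*, *Hist1h4i* and *Hist1h4b* were in 7, 2 and 2 members, all of them H4 genes.

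Promoter sequences of RefSeq (GRCm38.p6), 250 bases before to 50 bases after the start, were matched to 60 of the 67 members. They were searched on both strands for motifs known from histone promoters. CCAAT was in 51 of the 60, against 37.4% of all 32851 promoters, and was in every matched H1, H2A, H2B and H3 promoter but in 3 of 12 H4 promoters. TATAAA was in 34 of 60, against 13.6% of all promoters. The octamer ATTTGCAT was in 7 of 17 H2A and 6 of 16 H2B promoters and in no matched H1, H3 or H4 promoter, against 1.74% of all promoters. GGTCCG, the H4 promoter element, was in 11 of 12 H4 promoters and in 2 of the other members' promoters, against 8.25% of all. AAACACA, known from H1 promoters, was in 4 of 5 H1 promoters, against 7.18% of all. The 5 motifs were searched separately, so matches may overlap, and a match describes letters, not a bound site. The promoters of *Hist1h1b*, *Hist1h2ac* and *Hist1h4b*, which were called lower with fasting in at least 1 genotype, are shown as an example of each pattern, 5′ to 3′ on the gene's strand, with these motifs in capitals.
Hist1h1b, chr13:21780576-21780875, minus strand: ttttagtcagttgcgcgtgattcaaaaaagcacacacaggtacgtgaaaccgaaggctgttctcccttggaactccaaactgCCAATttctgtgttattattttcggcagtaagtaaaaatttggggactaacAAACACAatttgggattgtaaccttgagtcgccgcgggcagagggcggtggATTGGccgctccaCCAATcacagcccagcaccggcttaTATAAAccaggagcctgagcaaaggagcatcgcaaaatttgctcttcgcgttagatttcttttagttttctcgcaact
Hist1h2ac, chr13:23683910-23684209, minus strand: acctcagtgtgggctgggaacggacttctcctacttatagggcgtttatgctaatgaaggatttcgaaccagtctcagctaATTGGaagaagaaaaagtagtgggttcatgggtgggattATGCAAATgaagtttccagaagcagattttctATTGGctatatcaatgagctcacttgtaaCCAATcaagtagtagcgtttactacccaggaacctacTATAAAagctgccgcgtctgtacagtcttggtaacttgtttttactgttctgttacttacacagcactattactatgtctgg
Hist1h4b, chr13:23756687-23756986, plus strand: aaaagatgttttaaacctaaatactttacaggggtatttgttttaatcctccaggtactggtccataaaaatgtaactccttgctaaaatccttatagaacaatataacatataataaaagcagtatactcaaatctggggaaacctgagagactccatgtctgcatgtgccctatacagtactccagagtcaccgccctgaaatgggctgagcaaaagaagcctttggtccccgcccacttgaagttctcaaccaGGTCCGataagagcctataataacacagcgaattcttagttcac
The RefSeq start of *Hist1h4b* lies at -76 relative to the start of the GENCODE model, and the H4 element falls within the 50 bases after the RefSeq start. In 12 places an H2A and an H2B gene stood head to head, with 176 to 306 bases between their annotated starts. These pairs hold 24 of the 36 H2A and H2B members. The promoter stretches of paired genes can overlap, and both strands were searched. A single match, such as an octamer, can thus count for both genes, and the H2A and H2B counts are not all separate sites. The *Hist1h2ac* sequence above is from such a pair, with *Hist1h2bc* starting 251 bases away on the other strand.

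Histone genes took 0.239% to 0.604% of the counts of a mouse, and total counts ranged from 9059457 to 35068711. *Nts*, the targeted gene, which encodes neurotensin, lay between 4.98 and 8.59 CPM (counts scaled to a common library size with TMM) in the 10 Nt+/+ mice and between 0.144 and 0.793 CPM in the 9 Nt-/- mice. It was 5.43 CPM in replicate 5 of the fasted Nt+/+ mice, whose title and genotype label disagree and which was grouped by its title. Epithelial markers summed to 2979 to 3966 CPM in the Nt-/- and 3218 to 3940 CPM in the Nt+/+ mice, and stroma and muscle markers to 0.672 to 7.14 CPM in all mice. Of the 67 members, 63 passed the filter on low counts. The 4 others were *Hist2h3c1*, whose whole transcript is shared with another gene, and the testis forms *Hist1h1t*, *Hist1h2aa* and *Hist1h2ba*, which summed to at most 0.347 CPM in any mouse.

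Near-identical members share reads, and the deposited expected counts divide such reads by a model. Of 67 members, 60 had at least 1 window of 100 bases, the read length, that occurs in another gene, and in 25 members over 50% of windows did. The median was 34.2% over all members, 64.5% for H2A and 0.4% for H1 genes. Only 2 members, *Hist1h1e* and *Hist1h2be*, shared a window with a member of another class, at 21.7% of the windows of *Hist1h1e*. Most division of reads among members therefore stays within a class sum. However, 24 members shared windows with genes outside the 67, and such sharing can move class sums. Among the H3 genes, *Hist2h3b* and *Hist2h3c2* had 77.1% and 61.6% of windows in *Gm20634*. *Hist1h2ao* shows the effect of dividing reads between members. It had 0 CPM in 13 of 19 mice and 18.7 CPM in 1 ad libitum-fed Nt-/- mouse, and 92.7% of its windows occur in *Hist1h2ap*. Added to *Hist1h2ap*, its CV within a group was between 20.4% and 25.97%.

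**Figure D1:**
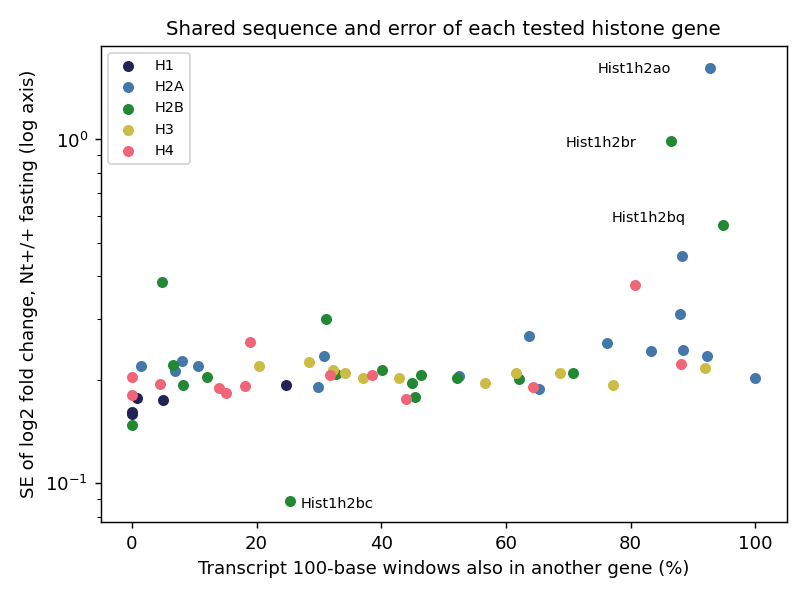
Percent of 100-base transcript windows that also occur in another gene (x axis) and standard error of the log2 fold change with fasting in Nt+/+ mice (y axis, log scale) for the 63 tested histone genes, coloured by class. The largest errors, of *Hist1h2ao*, *Hist1h2br* and *Hist1h2bq*, lie above 80% shared windows, and *Hist1h2bc* has the smallest error, 0.089.

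The first comparison asked how fasting changes histone RNA in the crypt. Summed over all members, histone RNA was lower on average in fasted mice of both genotypes, but the groups overlapped. Ad libitum-fed Nt+/+ mice 1 to 5 had sums of 5881, 3880, 6043, 4400 and 3712 CPM, and fasted Nt+/+ mice 1 to 5 had 4968, 3135, 4466, 2729 and 3622 CPM. The means were 4783 ± 1107 CPM and 3784 ± 926 CPM (SD, n = 5 each), a log2 ratio of -0.34 with an SE of 0.21. In 3 of 5 fasted Nt+/+ mice the sum was below every fed Nt+/+ mouse. Ad libitum-fed Nt-/- mice 1 to 4 had sums of 5179, 3568, 4895 and 3253 CPM, and fasted Nt-/- mice 1 to 5 had 3992, 2456, 2880, 2939 and 3575 CPM. Their means were 4224 ± 955 CPM (SD, n = 4) and 3168 ± 610 CPM (SD, n = 5), a log2 ratio of -0.41 with an SE of 0.22. Here too 3 of 5 fasted mice lay below every fed mouse. Between fed and fasted mice of the same number, the fasted sum was the lower one in 5 of 5 Nt+/+ pairs by either numbering, and in 4 of 4 (titles) or 3 of 4 (files) Nt-/- pairs. These sums were described and not tested. The highest sum in a group was 1.59 to 1.82 times the lowest.

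**Figure D2:**
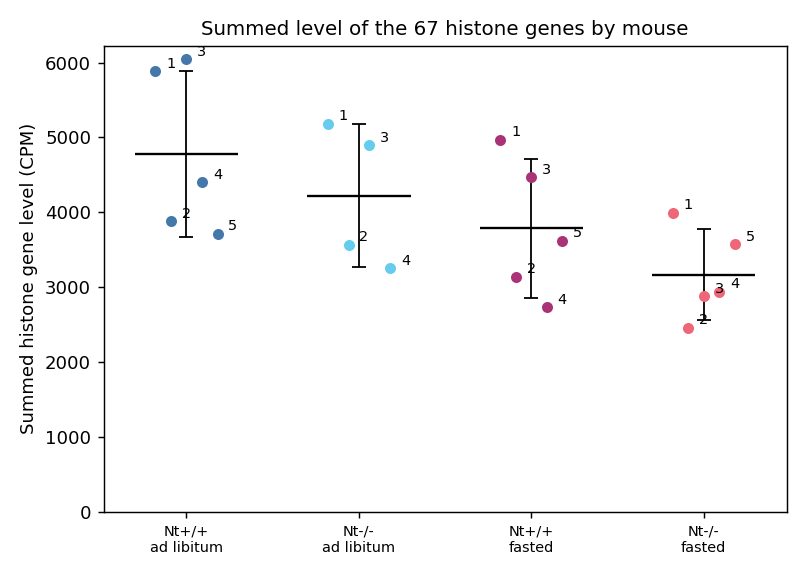
Summed level of the 67 histone genes in CPM (y axis) for each mouse in the 4 groups, with the replicate number of the title beside each point and the group mean ± SD in black. The means go from 4783 CPM in fed Nt+/+ to 3168 CPM in fasted Nt-/- mice, and points of all groups overlap.

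Each class had a lower mean in fasted mice. In Nt+/+ mice, summed H1 RNA was 14.4% lower (log2 ratio -0.22, SE 0.19), H2A RNA 20.6% lower (-0.33, SE 0.23), H2B RNA 24.5% lower (-0.40, SE 0.21), H3 RNA 20.0% lower (-0.32, SE 0.23) and H4 RNA 24.0% lower (-0.40, SE 0.21). In Nt-/- mice, H1 RNA was 18.3% lower (-0.29, SE 0.20), H2A RNA 25.5% lower (-0.42, SE 0.25), H2B RNA 26.6% lower (-0.45, SE 0.22), H3 RNA 26.8% lower (-0.45, SE 0.24) and H4 RNA 28.3% lower (-0.48, SE 0.23). The fed and fasted mice overlapped in every class and both genotypes. As a share of histone counts, H4 took 25.7% ± 0.417 of histone counts in fed and 24.6% ± 0.700 in fasted Nt+/+ mice (SD, n = 5 each), and H1 took 22.7% ± 0.963 and 24.7% ± 2.79.

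**Figure D3:**
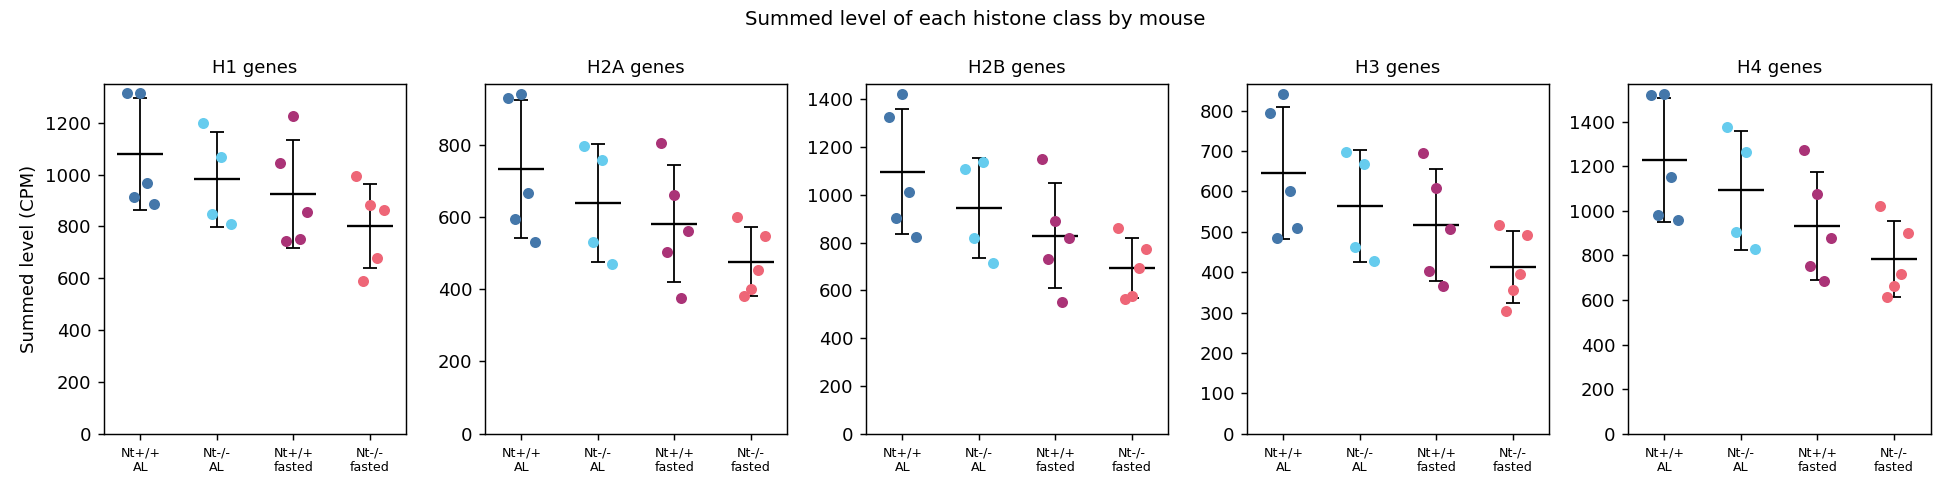
Summed level in CPM (y axis) of the H1, H2A, H2B, H3 and H4 genes, 1 panel each, for each mouse in the 4 groups, with the group mean ± SD in black. Every class has lower means in fasted mice, from 14.4% lower for H1 in Nt+/+ to 28.3% lower for H4 in Nt-/- mice, with overlapping points.

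Among single genes, 9 of the 63 tested members were lower and 0 were higher in fasted Nt+/+ mice by edgeR's quasi-likelihood test at an adjusted p under 0.05. Over all 17875 genes tested, 10.4% were called lower and 11.2% higher. In fasted Nt-/- mice, 14 of 63 members were lower and 0 higher, against 12.6% and 12.5% of all genes. How many members passed depended on the fit. When mice of the same replicate number were treated as blocks, 33 (numbers of the titles) or 24 (numbers of the deposited files) of 63 were lower in Nt+/+ mice and 34 or 35 in Nt-/- mice. Whether the numbers mark matched mice was not stated in the labels. The paper describes its fed controls as littermates matched for sex and age, without linking them to replicate numbers. The fitted log2 fold changes were below 0 for 57 of 63 members in Nt+/+ mice and 59 of 63 in Nt-/- mice without blocks. Their medians were -0.40 and -0.48, against medians of -0.01 and -0.02 over all genes tested. Because members share reads and largely rose and fell in the same mice, the 63 are not separate observations. Both genotypes shared 6 calls, *Hist1h1b*, *Hist1h2ae*, *Hist1h2bh*, *Hist1h3d*, *Hist1h4b* and *Hist2h2bb*. The share of calls common to both genotypes over all genes is not given here, so this overlap cannot be read as high or low. Single libraries moved these counts. Leaving out fed Nt+/+ replicate 1 or 3 left 3 or 2 calls in Nt+/+ mice, leaving out fasted replicate 2, 4 or 5 left 2, 2 or 4, and leaving out fasted replicate 1 gave 22. Leaving out a mouse of the other genotype, fed Nt-/- replicate 3 or fasted Nt-/- replicate 4, gave 5 and 4 calls, or 6 without fed Nt-/- replicate 2. In Nt-/- mice the calls were 2 and 3 without fed replicates 1 and 3, 3, 3 and 5 without fasted replicates 2, 3 and 4, and 23 and 24 without fed replicate 4 and fasted replicate 1.

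**Figure D4:**
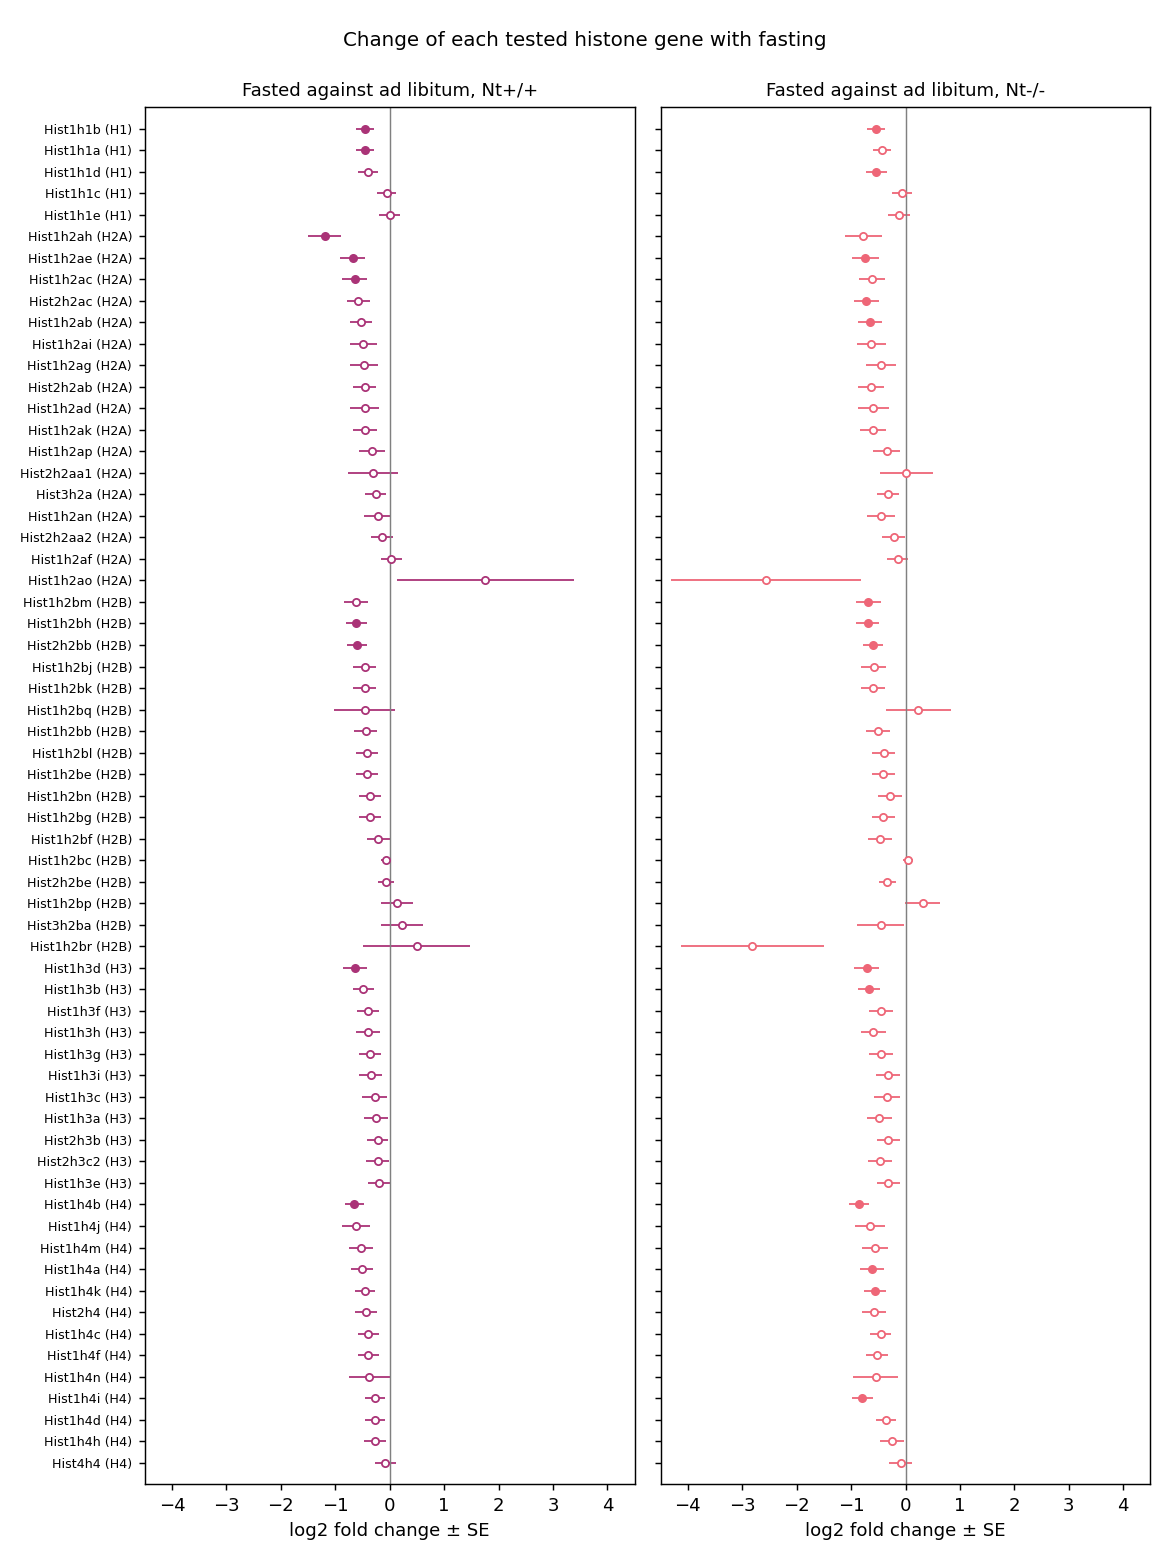
Log2 fold change ± SE (x axis) of fasted against ad libitum-fed mice for each of the 63 tested histone genes, sorted within class by the change in Nt+/+ mice, with Nt+/+ mice on the left and Nt-/- mice on the right. Filled points are the 9 and 14 genes called lower, and open points did not pass; most points lie left of 0 in both panels.

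*Hist1h4b*, an H4 gene, had the smallest adjusted p of the members in Nt-/- mice and was called in every setting tried. Fed Nt+/+ mice 1 to 5 had 130, 79.4, 125, 104 and 88.8 CPM, and fasted Nt+/+ mice had 93.0, 57.2, 69.8, 49.97 and 65.1 CPM. These groups overlapped through fasted mouse 1 and fed mice 2 and 5. Fed Nt-/- mice 1 to 4 had 108, 77.8, 110 and 71.7 CPM, and fasted Nt-/- mice had 60.9, 44.9, 38.7, 49.6 and 59.3 CPM, all below the fed mice. The log2 fold change was -0.65 (SE 0.18, edgeR adjusted p = 0.0116) in Nt+/+ and -0.86 (SE 0.19, edgeR adjusted p = 0.00221) in Nt-/- mice. *Hist1h4i*, a second H4 gene, was lower in Nt-/- mice by a log2 fold change of -0.79 (SE 0.20, edgeR adjusted p = 0.00574), from 7.52 ± 0.670 CPM (SD, n = 4) to 4.31 ± 1.07 CPM (SD, n = 5). In Nt+/+ mice its log2 fold change was -0.28 (SE 0.18, edgeR adjusted p = 0.303). The difference between these effects was -0.51 (SE 0.27, edgeR adjusted p = 1.00), which does not pass.

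*Hist1h2ah*, an H2A gene, had the smallest adjusted p in Nt+/+ mice. Fed Nt+/+ mice had 9.40, 7.21, 13.2, 9.74 and 5.12 CPM and fasted ones 6.43, 1.84, 4.68, 2.28 and 4.09 CPM, with fasted mouse 1 above fed mouse 5 only. The log2 fold change was -1.20 (SE 0.31, edgeR adjusted p = 0.00897) in Nt+/+ and -0.77 (SE 0.33, edgeR adjusted p = 0.0982) in Nt-/- mice. Its counts are uncertain, because 87.9% of its windows occur in other genes. The calls of *Hist1h2ah* and *Hist1h4b* in Nt+/+ mice and of *Hist1h4b* and *Hist1h4i* in Nt-/- mice held without each of the 19 mice in turn. Every other member's call was lost without at least 1 mouse.

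Of the H1 genes, *Hist1h1b* was lower in both genotypes, *Hist1h1a* in Nt+/+ and *Hist1h1d* in Nt-/- mice. *Hist1h1b* shares no window with another gene, so its counts are its own. It had 168 ± 33.9 CPM in fed and 122 ± 24.6 CPM in fasted Nt+/+ mice (SD over 5 mice in each), with a log2 fold change of -0.46 (SE 0.16, edgeR adjusted p = 0.047). In Nt-/- mice it was -0.54 (SE 0.17, edgeR adjusted p = 0.0230). *Hist1h1c* and *Hist1h1e*, the H1 genes with the highest mean CPM, had log2 fold changes of -0.05 (SE 0.17) and 0.00 (SE 0.19) in Nt+/+ mice, and neither passed in either genotype. The approximate 95% interval for *Hist1h1c* was -0.42 to 0.32 in Nt+/+ and -0.46 to 0.33 in Nt-/- mice.

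The other called members had log2 fold changes from -0.68 (*Hist1h2ae*) to -0.60 (*Hist2h2bb*) in Nt+/+ mice, apart from the 2 H1 genes, and from -0.74 (*Hist1h2ae*) to -0.53 (*Hist1h1d*) in Nt-/- mice. *Hist2h2bb* fell from 91.4 ± 18.7 to 60.1 ± 15.9 CPM in Nt+/+ mice (SD, n = 5 each; edgeR adjusted p = 0.0196). By class, the members called lower in Nt+/+ mice were 2 of 5 tested H1, 3 of 17 H2A, 2 of 17 H2B, 1 of 11 H3 and 1 of 13 H4 genes. In Nt-/- mice they were 2 H1, 3 H2A, 3 H2B, 2 H3 and 4 H4 genes of the same numbers. The shares called lower over all genes were 10.4% in Nt+/+ and 12.6% in Nt-/- mice. Counts this small do not set a class apart. *Hist1h4d* and *Hist1h4h*, the H4 genes with the highest mean CPM, had log2 fold changes of -0.27 (SE 0.18) and -0.27 (SE 0.21) in Nt+/+ mice and did not pass.

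From general knowledge of the family, 8 members were listed as also made as polyadenylated RNA. These are *Hist1h1c*, *Hist1h2bc*, *Hist2h2be*, *Hist2h2aa1*, *Hist2h2aa2*, *Hist3h2a*, *Hist3h2ba* and *Hist4h4*. They gave 0 calls in either genotype, by edgeR and by DESeq2, with 0 and 1 of 8 at an unadjusted p under 0.05. Over all genes tested, 10.4% were called lower and 11.2% higher in Nt+/+ mice, and 12.6% and 12.5% in Nt-/- mice. At these shares, a count of 0 does not by itself set the 8 members apart. Their median log2 fold changes were -0.08 in Nt+/+ and -0.15 in Nt-/- mice, against -0.42 and -0.54 for the 55 other tested members. Their sum was 6.69% and 7.48% lower in fasted mice, against 22.9% and 27.5% for the other 59 members. Whether the 8 differ from the others was not tested. The libraries do not show which members were polyadenylated, and the others may include such genes. The medians therefore depend on which members were listed. *Hist2h2aa2* also had 100% of its windows in *Hist2h2aa1*, so these 2 are not separate. *Hist2h2be* had 10.4 CPM in fed and 9.98 CPM in fasted Nt+/+ mice, a log2 fold change of -0.07 (SE 0.15), and -0.34 (SE 0.16) in Nt-/- mice. *Hist4h4* had -0.08 (SE 0.19) and -0.09 (SE 0.21).

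*Hist1h2bc* was the steadiest member. It had 66.2, 60.5, 72.2, 65.2 and 58.2 CPM in fed Nt+/+ mice and 68.7, 57.2, 64.8, 52.5 and 63.9 CPM in fasted ones. Fed Nt-/- mice had 60.9, 49.6, 65.2 and 64.9 CPM and fasted ones 66.7, 57.9, 56.7, 60.4 and 68.0 CPM, so all 4 groups overlapped. Its log2 fold change was -0.07 (SE 0.09, approximate 95% interval -0.26 to 0.12) in Nt+/+ and 0.04 (SE 0.09, -0.16 to 0.24) in Nt-/- mice. Its CV within a group averaged 9.86%, against a median of 25.0% over the 63 tested members, and it was the only member under 10%. Its head-to-head neighbour *Hist1h2ac* had 23.4 ± 7.20 CPM in fed and 14.9 ± 4.76 CPM in fasted Nt+/+ mice (SD over 5 mice in each), with a log2 fold change of -0.64 (SE 0.23, edgeR adjusted p = 0.0492). In Nt-/- mice *Hist1h2ac* had -0.62 (SE 0.24, edgeR adjusted p = 0.0662), which does not pass. The annotation gives *Hist1h2ac* 2010 bases beyond its stem-loop. Among 20 tested members with over 100 annotated bases beyond the stem-loop, 4 were lower in Nt+/+ and 5 in Nt-/- mice, with median log2 fold changes of -0.38 and -0.46. Among the 22 members with a shorter stretch, 1 and 5 were lower, with medians of -0.42 and -0.54, and over all genes 10.4% and 12.6% were called lower.

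**Figure D5:**
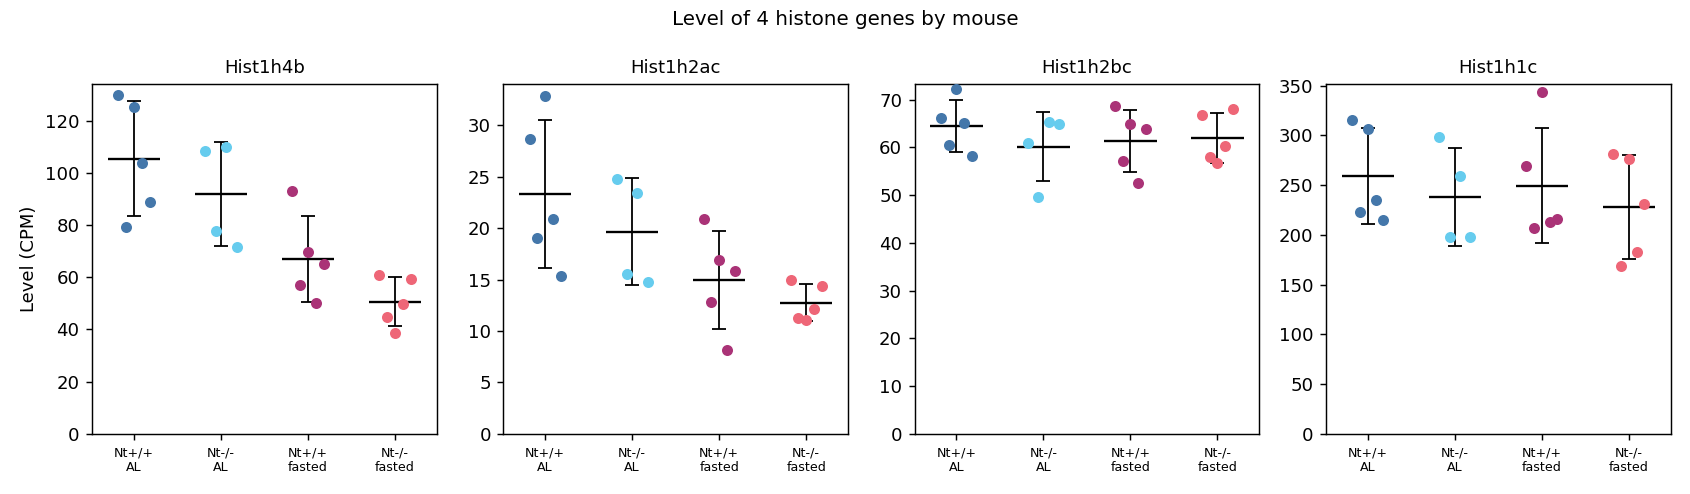
Level in CPM (y axis) of *Hist1h4b*, *Hist1h2ac*, *Hist1h2bc* and *Hist1h1c*, 1 panel each, for each mouse in the 4 groups, with the group mean ± SD in black. *Hist1h4b* and *Hist1h2ac* have lower means in fasted mice of both genotypes, and *Hist1h2bc* lies between 49.6 and 72.2 CPM in all mice.

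The second question was whether neurotensin deficiency changed histone RNA. In each diet, 0 of 63 members passed, and 0.00559% of all genes tested did, which is *Nts* alone. At an unadjusted p under 0.05 there were 1 member in fed and 4 in fasted mice, and DESeq2 called 0 in both. The log2 fold change of Nt-/- against Nt+/+ mice was below 0 for 60 of 63 members in fed and 60 of 63 in fasted mice, with medians of -0.19 and -0.27, against -0.00 and -0.01 over all genes. Members share reads and largely rose and fell in the same mice. The 63 are therefore not separate observations, and the number below 0 adds little to the sum. Summed histone RNA was 11.7% lower in fed Nt-/- mice (log2 ratio -0.18, SE 0.22) and 16.3% lower in fasted Nt-/- mice (-0.26, SE 0.21), less than the spread between mice. *Hist1h4n* had the smallest p in both diets. It was -1.09 (SE 0.41, edgeR adjusted p = 1) in fed and -1.26 (SE 0.39, edgeR adjusted p = 0.335) in fasted mice. Fed Nt+/+ mice had 144, 31.9, 57.2, 58.5 and 34.9 CPM, and fed Nt-/- mice 43.2, 28.4, 31.7 and 19.1 CPM, so 1 Nt+/+ mouse was far above the rest. Its counts are uncertain, since 80.7% of its windows occur in *Hist1h4m*. Summed with *Hist1h4m* it had 187 ± 47.0 CPM in fed Nt+/+ (SD, n = 5) and 158 ± 41.5 CPM in fed Nt-/- mice (SD, n = 4). The effect of fasting differed between genotypes for 0 of 63 members and 0% of all genes, with 0 members at an unadjusted p under 0.05 and 0 by DESeq2. The median difference was -0.09.

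Genes that make and handle histone mRNA were lower or did not pass. Of 21 tested genes of the histone locus and stem-loop machinery, 7 were lower in fasted Nt+/+ and 9 in fasted Nt-/- mice. None was higher. Of all genes tested, 10.4% and 12.6% were called lower in these comparisons. *Slbp*, which encodes SLBP, went from 56.9 ± 2.58 to 43.1 ± 5.72 CPM in Nt+/+ mice (SD over 5 mice in each), with a log2 fold change of -0.40 (SE 0.09, edgeR adjusted p = 0.00270), and was -0.53 (SE 0.09, edgeR adjusted p = 0.00038) in Nt-/- mice. *Cpsf2*, a subunit of the complex that cuts the pre-mRNA, was -0.58 (SE 0.10) and -0.61 (SE 0.10). *Eri1*, an exonuclease that binds the stem-loop, was -0.48 (SE 0.08) in Nt+/+ and -0.45 (SE 0.08) in Nt-/- mice, and *Srrt*, a cap-complex partner, was -0.34 (SE 0.07) and -0.54 (SE 0.07). All of these passed.

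Of 21 tested histone chaperones, proteins that carry new histones to DNA, 6 were lower in Nt+/+ and 7 in Nt-/- mice. None was higher. The shares called lower over all genes were 10.4% and 12.6%. *Asf1b*, an H3-H4 chaperone, was -0.76 (SE 0.13, edgeR adjusted p = 0.000300) and -0.83 (SE 0.14, edgeR adjusted p = 0.000200). *Nasp*, which holds the soluble H3-H4 pool, was -0.39 (SE 0.08) and -0.50 (SE 0.08), and *Hat1*, which acetylates new H4, was -0.58 (SE 0.11) and -0.54 (SE 0.12), and both passed in both genotypes. *Chaf1a*, a subunit of the CAF-1 complex, was -0.36 (SE 0.09) and -0.57 (SE 0.10) and also passed.

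Histone variant genes outside the 67 members, most of them polyadenylated and expressed outside S phase, moved in both directions. Of 11 tested, 3 were higher and 1 lower in fasted Nt+/+ mice, and 2 were higher and 2 lower in fasted Nt-/- mice. Over all genes, 11.2% were called higher and 10.4% lower in Nt+/+ mice, and 12.5% and 12.6% in Nt-/- mice. *H3f3b*, which encodes H3.3, went from 334 ± 14.7 to 445 ± 47.0 CPM in Nt+/+ mice (SD over 5 mice in each), with a log2 fold change of 0.41 (SE 0.09, edgeR adjusted p = 0.00382), and was 0.35 (SE 0.10, edgeR adjusted p = 0.0137) in Nt-/- mice. *H1f0*, a linker histone of cells that have stopped dividing, was 0.41 (SE 0.10, edgeR adjusted p = 0.0050) in Nt+/+ and 0.28 (SE 0.10, edgeR adjusted p = 0.0569) in Nt-/- mice, the second not passing. *H1fx*, another linker histone, was 0.94 (SE 0.26, edgeR adjusted p = 0.0120) in Nt+/+ and 0.69 (SE 0.28, edgeR adjusted p = 0.0780) in Nt-/- mice, again with the second not passing. *H2afv*, an H2A.Z form, was 0.22 (SE 0.09, edgeR adjusted p = 0.101) and 0.32 (SE 0.10, edgeR adjusted p = 0.0218), passing in Nt-/- mice. The lower call in Nt+/+ mice was *H2afz*, which encodes H2A.Z, at -0.61 (SE 0.17, edgeR adjusted p = 0.0169), and it was -0.45 (SE 0.18, edgeR adjusted p = 0.0779) in Nt-/- mice. The lower calls in Nt-/- mice were *H2afy*, which encodes macroH2A, at -0.28 (SE 0.07, edgeR adjusted p = 0.00967), and *H2afx*, which encodes H2A.X of the DNA damage response, at -0.40 (SE 0.14, edgeR adjusted p = 0.0441). In Nt+/+ mice these were -0.17 (SE 0.07) and -0.18 (SE 0.13) and did not pass.

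Most S phase genes fell with fasting. Of 26, 20 were lower in Nt+/+ and 23 in Nt-/- mice and 0 were higher, against 10.4% and 12.6% of all genes called lower. *Pola1*, a subunit of DNA polymerase alpha, was -0.83 (SE 0.10) and -0.92 (SE 0.11), *Rrm2*, a subunit of ribonucleotide reductase, -0.79 (SE 0.12) and -0.98 (SE 0.12), and *Cdc6*, which licenses replication origins, -0.75 (SE 0.12) and -0.95 (SE 0.13), all passing. The median log2 fold change of the 26 was -0.42 in Nt+/+ and -0.54 in Nt-/- mice, against -0.40 and -0.48 for the histone genes. Their median SE was 0.11 and 0.12, against 0.21 and 0.22 for the histone genes. Summed S phase RNA spanned 1167 to 1390 CPM in fed and 803 to 1068 CPM in fasted Nt+/+ mice, with no overlap, unlike the histone sum.

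Other values moved with fasting beside these results. The 3 dividing cell markers *Mki67*, *Top2a* and *Birc5* were lower in both genotypes, with a sum of 1287 to 1467 CPM in fed and 824 to 1109 CPM in fasted Nt+/+ mice, and 1218 to 1340 and 714 to 931 CPM in Nt-/- mice. Villus enterocyte markers were higher, 3 of 4 in Nt+/+ and 4 of 4 in Nt-/- mice, with sums of 464 to 1343 CPM in fed and 1095 to 3765 CPM in fasted Nt+/+ mice, and 632 to 1589 and 2715 to 4029 CPM in Nt-/- mice. Of the germinal centre B cell markers, 1 of 2 tested was lower in Nt+/+ and 2 of 2 in Nt-/- mice. Of 4 crypt stem cell markers, *Olfm4* was lower in Nt+/+ mice at -0.63 (SE 0.21), and *Olfm4* and *Smoc2* were lower in Nt-/- mice at -0.92 (SE 0.22) and -0.49 (SE 0.13). *Ascl2* and *Lgr5* were above 0 in Nt+/+ mice, at 0.63 (SE 0.28, edgeR adjusted p = 0.114) and 0.29 (SE 0.19, edgeR adjusted p = 0.287), and were 0.12 (SE 0.30) and -0.02 (SE 0.20) in Nt-/- mice, none of them passing. In all, 0 Paneth cell, 0 lymphocyte, 0 stroma and 0 epithelial markers passed in either genotype. The part of cell makeup in the histone values was not tested. Of 18 tested gene entries for RNAs that also lack a poly(A) tail, such as 7SK and RNase MRP RNA, 0 passed in either genotype. This held by edgeR and by DESeq2, with 0 at an unadjusted p under 0.05. The 18 entries are not separate RNAs. Those of *Rnu3b1* to *Rnu3b4* repeat log2 fold changes of -0.87 (SE 0.56) and 0.29 (SE 1.20) in Nt+/+ mice, and *Rn7s1* and *Rn7s2* share -0.03 (SE 0.19). Errors of this size leave room for changes as large as the histone medians, but those of some other entries do not. *Rn7sk* was 0.29 (approximate 95% interval -0.02 to 0.61) in Nt+/+ and 0.285 (-0.05 to 0.62) in Nt-/- mice. *Rpph1* was 0.05 (-0.29 to 0.39) and 0.08 (-0.28 to 0.44). *Rmrp* was -0.42 (SE 0.23) and 0.27 (SE 0.25). All entries summed to 34604 to 47129 CPM in fed and 36217 to 50188 CPM in fasted Nt+/+ mice.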

How the data were processed

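RNA of intestinal crypts from 19 mice was sequenced as ribosomal RNA-depleted, single-end libraries. The authors trimmed reads with Trimmomatic 0.39 and deposited expected counts per gene from RSEM on GRCm38, 1 table per mouse. The RSEM version is not given in the sources used here. RSEM divides reads that match several genes, so near-identical histone genes trade counts, and sums over classes are given for that reason. Total counts were 9059457 to 35068711 per mouse.

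Expected counts were rounded and tested with edgeR 4.0.16 in R 4.3.3: TMM scaling, filterByExpr, 4 group means, the quasi-likelihood test with 15 residual degrees of freedom, and Benjamini-Hochberg adjustment over 17875 genes at 0.05. SEs were taken from the fold change and its F statistic, and approximate 95% intervals from the SE. Sums are CPM on TMM library sizes and were not tested. Groups follow the sample titles. Named genes are the called members, the 2 members of each class with the highest mean CPM, the polyadenylated and testis members, and the 3 genes of each other list with the smallest p, beside *Nts*, and examples of read sharing and the remaining variant calls and stem cell markers, chosen after their values were seen. The members and lists were chosen with earlier results of these data known. The deposited tables also hold lengths, TPM and FPKM, which were not tested. The steps were tested on simulated data. DESeq2 1.42.0 was an alternative. The labels do not say what a shared replicate number means. The level of 1 listed marker gene, and the sum that holds it, are not reported here.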

Additional observations from a re-analysis of the deposited data

Results flagged for a closer look

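*Hist3h2ba*, an H2B gene of the Hist3 cluster, had 0.412 CPM in fasted Nt+/+ replicate 3, and the 4 other mice of that group had 1.43 to 1.74 CPM. The gap was large for the range of the group by Dixon's test. It was the only one among 156 groups tested, of which chance flags about 1 in 20. These groups covered the histone sums and the members named by rule. Other members, such as *Hist1h4n*, were not among them.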

How the results depend on the processing

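Under a replicate block, whose pairing is uncertain, 33 (title number) and 24 (file number) members were called with fasting in Nt+/+ mice, against 9, and 34 and 35 in Nt-/- mice, against 14. The block also gave 11 and 12 machinery genes (7 without it) and 10 and 11 chaperones (6 without it) in Nt+/+ mice, 12 chaperones (7 without it) in Nt-/- mice by title number, 1 RNA without a poly(A) tail in Nt+/+ mice by either number and 1 in Nt-/- mice by title number, and 1 polyadenylated member in Nt-/- mice by title number. Deviations of same-numbered mice had a mean correlation of 0.184 by title number (lowest -0.127, 19 of 27 pairs over 0.1) and 0.227 by file number (lowest 0.067, 24 of 27 over 0.1), against -0.046 and -0.056 for 108 pairs with different numbers. Mice of 1 file number were of the same sex where it is given. The labels do not say that a number marks a match, and not every pair passed 0.1, so the fit without the block stayed the main one. The paper states that fed controls were matched littermates but not which mice were matched. Pairing by file number therefore remains possible, and the main fit ignores it. In Nt+/+ mice, 4 members were called with sex as a covariate, 4 with fasted Nt+/+ replicate 5 grouped as Nt-/- and 5 with only the groups compared, and 9 were called in Nt-/- mice with that mouse regrouped. Without 1 mouse, members called were 2 to 22 in Nt+/+ and 2 to 24 in Nt-/- mice, and variants called in Nt-/- mice 2 to 5. The genotype comparisons and the difference between the effects gave 0 members in every setting run.

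Fold changes near 0 changed sign. *Hist1h1e* in Nt+/+ mice was -0.0058 without a filter, -0.0216 and -0.0223 with the block by title and file number, and -0.0079 with sex. *Hist2h2aa1* in Nt-/- mice was -0.004, -0.2444, -0.2673 and -0.2563 in the same settings. Without 1 mouse, *Hist1h1e* ranged from -0.1854 to 0.0892 in Nt+/+ and -0.2196 to 0.0019 in Nt-/- mice, *Hist1h1c* from -0.1949 to 0.0285 and -0.1478 to 0.0664, *Hist2h2be* from -0.1419 to 0.0308 and *Hist4h4* from -0.1974 to 0.0094 in Nt+/+ mice, and *Hist1h2bc* from -0.0387 to 0.0839 and *Hist2h2aa1* from -0.2185 to 0.1794 in Nt-/- mice. The cause was not tested. None of these passed, with a smallest adjusted p of 0.523.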
